A study of Mus musculus with 6 samples.

Results

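The comparison described here sets 2 libraries named KO against 2 libraries named DeltaSP, which makes 4 of the 6 libraries of a study of the mouse lncMN2 locus. All derive from mouse embryonic stem cells of the HB9::GFP line, in which a green fluorescent protein reports motor neurons, and were taken as embryoid bodies on day 6 of motor neuron differentiation and profiled as single cells in droplets with a 3' kit. Both genotypes were made with CRISPR/Cas9: KO is labelled lncMN2-/- and DeltaSP is labelled lncMN2_SP-/-, where the labels do not spell out SP. Unedited wild-type (WT) libraries of the same line and day, also 2, stayed outside the contrast and are given for reference. Each condition is represented by 2 clones, so a difference between genotypes cannot be told apart from a difference between clones or library preparations, and p-values measure only the spread between these libraries.

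Members were chosen by library title, and cells by 2 filters: at least 1000 detected genes and at most 10% of UMIs in mitochondrially encoded genes. A UMI, or unique molecular identifier, counts 1 captured RNA molecule. The edited libraries held 10114 of the 16225 cells that passed, made up of 2283 DeltaSP 1, 3602 DeltaSP 2, 2129 KO 1 and 2100 KO 2 cells. UMIs were summed over all of these cells in each library. In such sums, fewer cells of a type and less RNA per cell cannot be told apart.

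Spinal motor neurons arise from dividing progenitors that carry the transcription factor Olig2. On leaving the cell cycle they switch on Mnx1 (also called HB9), Isl1 and Lhx3, and later the enzyme of acetylcholine synthesis, Chat. Long non-coding RNAs are transcripts without a long reading frame, and some of them are also the host or neighbour of microRNAs, short RNAs that repress messengers paired to their seed. Both kinds of RNA can be touched by an edit at the same locus.

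Library sizes of the edited samples ran from 30083162 to 47927845 UMIs, with medians of 11898.5 to 14360 UMIs per cell and 3.29% to 4.64% mitochondrial UMIs. WT 1 was shallower, at a median of 4157 UMIs per cell. Pairs of edited libraries shared between 0 and 4 cell barcodes. Olig2, Mnx1, Isl1, Lhx3 and Chat were all present in each edited library. Some single libraries stood apart. DeltaSP 1 held 0 UMIs of Ddx3y, Uty and Eif2s3y, Y-linked genes found in the others. DeltaSP 2 was above DeltaSP 1 in short transcripts of ribosomes and mitochondria. KO 2 was above KO 1 in glycolytic genes, and KO 1 alone was high in Lefty1. Levels below are CPM (UMI counts relative to the library total, with TMM to correct for composition), errors of log2 fold changes are standard errors of the fit, and a positive log2 fold change means a higher level in KO.

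Of 14900 tested genes, 1 passed an adjusted p of 0.05 between KO and DeltaSP, which is 0.00671% of them. This was edgeR's quasi-likelihood test with Benjamini-Hochberg adjustment, with all 6 libraries in the fit. The passing gene was 5330434G04Rik, the annotated long non-coding transcript of the targeted locus, which fell in KO. At an unadjusted p under 0.05 there were 813 genes (5.46%), 637 lower in KO (4.28% of those tested) and 176 higher (1.18%). Libraries of the genotypes did not overlap for 6256 genes, which is 42% of those tested, 3150 with KO lower (21.1%) and 3106 with KO higher (20.8%). The same model fitted to the 4 edited libraries alone called 4 genes (0.0272%), adding Etfb, Dlk1 and Ifitm3, and the DESeq2 Wald test called 51 (0.342%), 50 lower in KO and 1 higher.

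The targeted transcript 5330434G04Rik (ENSMUSG00000087620) is annotated as a lincRNA on the minus strand of mm10 chrX:105348282-105391776. Its level was 22.4 and 23.3 CPM in DeltaSP and 0.124 and 0.17 CPM in KO, with 37.4 and 34.8 CPM in WT. The KO libraries were far below both other genotypes, and no libraries of different genotypes overlapped. The KO libraries held 4 and 6 UMIs and the DeltaSP libraries 841 and 1066. Relative to the library totals, these UMIs differed 140-fold (95% interval 75.9 to 292, which covers counting error only). The fitted log2 fold change was -7.23 ± 0.23 with an adjusted p of 5.8e-05 in edgeR, and it ranged from -7.48 to -7.03 when single libraries were left out. 3' end counts do not show which part of a transcript is missing, so they do not check the DeltaSP edit.

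Cells were also split by their UMIs of 16 pan-neuronal genes after each was thinned to 3000 UMIs. A UMI of 5330434G04Rik appeared in 12.8% and 13.4% of the DeltaSP cells with 10 or more pan-neuronal UMIs, and in 3.24% and 2.80% of those with under 5. In KO it appeared in 0 of 559 and 0 of 483 neuron-rich cells, which allows shares of cells with a UMI at this depth of up to 0.537% and 0.621%. Of 1365 neuron-poor cells in each KO library, it appeared in 0 in KO 1 and in 0.147% in KO 2. The share in DeltaSP was higher in neuron-rich cells. No cell group that should lack the transcript was at hand in DeltaSP, so the share in neuron-poor cells is not read as expression. Median depth before thinning was 13212 to 15913 UMIs in neuron-rich DeltaSP cells and 12326 to 14511 in neuron-poor ones.

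Mir325 lies inside the annotated span of the transcript (chrX:105379082-105379179), and Mir384 lies just outside it (chrX:105344282-105344369), both on the minus strand. Their mature sequences are shown because the edits compared here lie at this locus and the seed, in capitals, sets which messengers can pair (RefSeq, GRCm38.p6).
mmu-miR-325-3p: uUUAUUGAgcaccuccuaucaa
mmu-miR-384-5p: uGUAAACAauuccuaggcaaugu
mmu-miR-30a-5p: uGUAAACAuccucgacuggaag
mmu-miR-30e-5p: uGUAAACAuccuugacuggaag
Among the mature sequences in the reference used, the seed of miR-384-5p was shared with miR-30a-5p, miR-30c-5p and miR-30e-5p, whose genes lie on other chromosomes. No other mature sequence there had the seed of miR-325-3p. The reference does not hold every mouse microRNA, so these sets may be incomplete. Mature microRNAs are not counted in these libraries.

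Genes whose 3' UTR held the matching site had medians near that of all genes. The site TCAATAA of miR-325-3p was found in 2225 tested genes, with a median log2 fold change of 0.01, against 0.00 in the 11530 without it. The site TGTTTAC of miR-384-5p was found in 2529 genes, with a median of 0.01, against -0.00 in the 11226 without it. With 2 or more sites the medians were -0.00 over 247 genes and 0.02 over 436 genes. All of these lay close to the -0.00 of all tested genes. Libraries did not overlap with KO higher for 594 and with KO lower for 414 of the genes with a miR-384-5p site (23.5% and 16.4%), and for 113 and 59 of those with 2 or more (25.9% and 13.5%), against 20.8% and 21.1% of all genes. For miR-325-3p these counts were 489 and 433 (22% and 19.5%), and 44 and 45 with 2 or more sites (17.8% and 18.2%). With tested genes cut into 4 groups by transcript length, the longest group had 21.6% and 15.7%. The part of length in these shares was not tested.

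Neighbours of the locus did not move as one. Of 12 tested genes within 1 Mb, 6 were above 0 and 6 below, the median was 0.05, and 0 passed in edgeR or DESeq2. At an unadjusted p under 0.05 there were 2, both lower in KO (against 4.28% of all genes). Magee2 had 2.77 and 1.68 CPM in DeltaSP and 1.18 and 1.25 in KO (-0.87 ± 0.35), and Cox7b, a subunit of cytochrome oxidase, 202 and 339 against 173 and 144 (-0.78 ± 0.28). Atrx, a chromatin remodeller, had 149 and 163 CPM in DeltaSP and 169 and 166 in KO, a log2 fold change of 0.10 ± 0.14. Pgk1, a glycolytic enzyme, had 252 and 347 against 269 and 579 CPM (0.50 ± 0.37), where KO 2 alone was high and the genotypes overlapped.

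**Figure D1:**
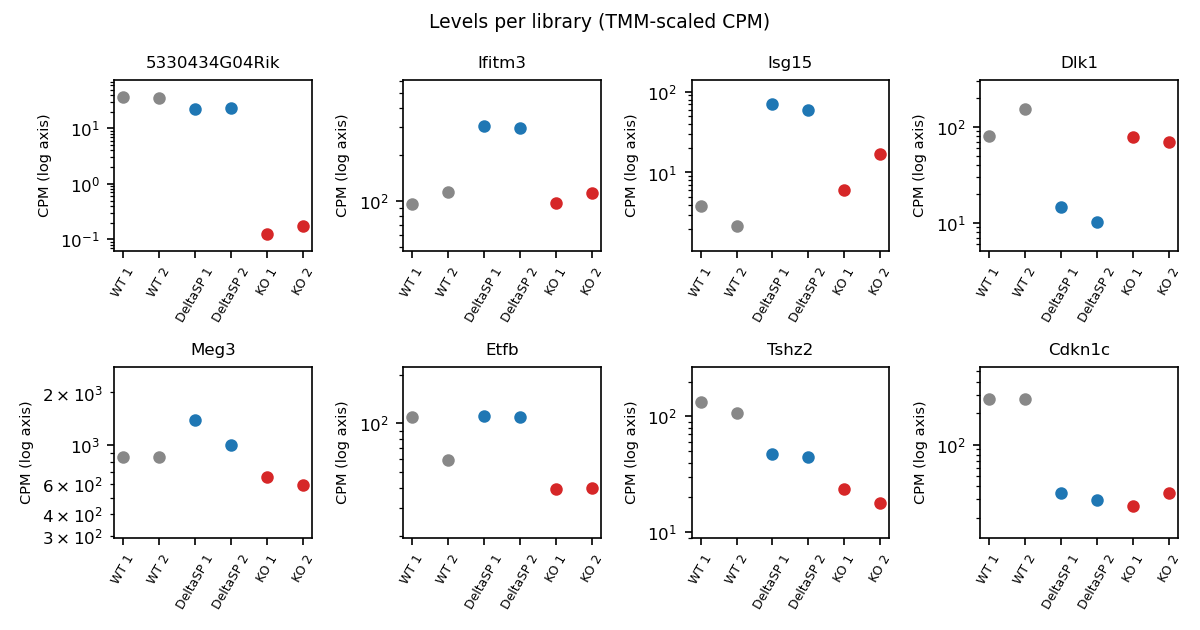
Level of 8 genes in each of the 6 libraries, in TMM-scaled CPM on a log axis; grey points are WT, blue DeltaSP and red KO, and each point is 1 library. 5330434G04Rik, Ifitm3, Isg15, Meg3, Etfb and Tshz2 were lower in both KO libraries than in both DeltaSP libraries, Dlk1 was higher, and Cdkn1c overlapped.

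Interferon-induced genes, the antiviral and antigen-presenting genes switched on by interferon signalling, had the lowest median of the gene lists described here. Of 39 tested members, 36 were lower in KO, 30 of them without overlap (against 21.1% of all genes), and the median log2 fold change was -1.26, against -0.00 over all genes. None passed in edgeR, while 28 had an unadjusted p under 0.05, all lower in KO, against 4.28% of all genes. The DESeq2 Wald test called 8 of the list, all lower. Over all genes it called 0.342%, with 50 of 51 lower in KO. The summed plain CPM of the list was 1180 and 932 in DeltaSP, 439 and 754 in KO and 245 and 306 in WT, so the KO libraries lay between the others.

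Isg15, a ubiquitin-like protein, had 70.0 and 59.1 CPM in DeltaSP, 6.07 and 17 in KO and 3.85 and 2.15 in WT. The 3 genotypes did not overlap, and KO 1 was nearer to WT than KO 2 was. The log2 fold change was -2.48 ± 0.45 (edgeR adjusted p = 0.844, DESeq2 1.72e-05), and -3.41 to -1.92 with single libraries left out. Ifitm3, a membrane protein that blocks virus entry, had 305 and 298 CPM in DeltaSP and 97.8 and 112 in KO. Both KO libraries were at the level of WT, which had 95.4 and 114. Its log2 fold change was -1.52 ± 0.16, with an adjusted p of 0.147 in the edgeR fit of 6 libraries and 0.043 with the 4 edited libraries alone.

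In several members KO 2 was above KO 1. Usp18, which removes Isg15 from proteins, had 42.6 and 27.8 CPM in DeltaSP and 3.24 and 12.7 in KO (-2.14 ± 0.55). Bst2, or tetherin, had 86.0 and 68.3 against 18.8 and 38.2 CPM (-1.44 ± 0.31). Both KO libraries were below both DeltaSP libraries in these 2 genes. The same held for Oasl2, Rtp4, Ifit1 and Ifit3b, and for Rnf213, which is not on the list. The rule required it of all but Ifit1 and Ifit3b. Log2 fold changes of Oasl2, Rtp4, Ifit1, Ifit3b and Rnf213 ran from -1.43 to -2.97. These sizes depended on the KO clone: Usp18 was at -3.44 without KO 2 and -1.47 without KO 1, Rtp4 at -2.93 and -1.08, Oasl2 at -2.80 and -1.18 and Bst2 at -2.04 and -1.01. The class I gene H2-K1 had 151 and 146 CPM in DeltaSP and 120 and 205 in KO, which overlapped, and Tap1, Gbp2 and Psmb9 also overlapped. Ifit1, as well as the members of the list that the rule did not select (H2-K1, Tap1, Gbp2, Psmb9), were chosen after their values were seen.

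Over the 4 pairs of a KO and a DeltaSP library, the median difference in log2(CPM + 1) of this list was -1.29 for KO 1 against DeltaSP 1 and -1.15 against DeltaSP 2, and -0.85 and -0.49 for KO 2. The same difference between KO 1 and KO 2 was -0.61, and between DeltaSP 1 and DeltaSP 2 it was 0.30. All 4 pairs had one sign, but the 2 KO clones differed by more than the smallest of them.

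The difference was present at the level of cells. After thinning to 3000 UMIs, 15.1% and 11.3% of DeltaSP cells held 5 or more UMIs of 37 interferon-induced genes (the list without B2m, H2-K1 and H2-D1), against 2.89% and 6.31% of KO cells and 0.674% and 0.860% of WT cells. The DeltaSP libraries were highest and the WT libraries lowest. Thinning left out 103 and 201 DeltaSP cells, 56 and 102 KO cells and 936 and 101 WT cells. Without thinning the shares were 46.7% and 37.5% in DeltaSP, 17.6% and 33.4% in KO and 1.87% and 18.2% in WT.

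A small share of cells was very high, and the rest differed as well. Cells with 20 or more of these UMIs made up 2.66% and 1.71% of DeltaSP and 0.145% and 0.350% of KO, and held 32.1% and 24.7% of the UMIs of the list in DeltaSP. Among the other cells the mean was 1.92 and 1.61 UMIs per cell in DeltaSP and 0.693 and 1.19 in KO. In neuron-poor cells Ifitm3 had 5.27 and 3.93 UMIs per 10000 in DeltaSP and 1.5 and 1.68 in KO, and in neuron-rich cells 0.451 and 0.378 against 0.066 and 0.131. Levels of Ifitm3 were lower in KO in both cell groups. It passed in neuron-rich cells fitted alone (-2.17, edgeR adjusted p = 0.024) and not in neuron-poor cells (-1.63, edgeR adjusted p = 0.0996), and the difference between the cell groups was not tested.

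The promoters of Isg15 and Ifitm3 are shown because both genes stand for a list whose members were lower together, and both hold a short motif. The motif searched was GAAANNGAAA on both strands, overlapping matches included, a simplified form of the interferon-stimulated response element. It was found in 14 of 32 list members present in the promoter table and in 3.99% of all 27025 genes in it, in windows from 250 bases before to 50 after the start (RefSeq, GRCm38.p6). A match describes letters and is not a site. Capitals mark the matched bases, which overlap in Isg15 (3 matches, chr4:156200769-156201068, minus strand) and are separate in Ifitm3 (2 matches, chr7:141010695-141010994, minus strand).
Isg15: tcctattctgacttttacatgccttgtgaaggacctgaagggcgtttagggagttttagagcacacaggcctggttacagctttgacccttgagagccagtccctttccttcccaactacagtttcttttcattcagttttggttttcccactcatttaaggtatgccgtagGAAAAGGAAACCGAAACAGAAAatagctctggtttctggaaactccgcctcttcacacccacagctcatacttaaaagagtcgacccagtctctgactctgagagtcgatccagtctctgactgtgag
Ifitm3: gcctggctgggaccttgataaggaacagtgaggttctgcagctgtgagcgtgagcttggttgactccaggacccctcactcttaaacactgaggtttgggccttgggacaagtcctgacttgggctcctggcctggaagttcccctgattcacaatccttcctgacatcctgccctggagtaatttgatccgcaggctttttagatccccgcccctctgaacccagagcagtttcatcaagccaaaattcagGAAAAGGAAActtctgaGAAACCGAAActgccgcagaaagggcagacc

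**Figure D2:**
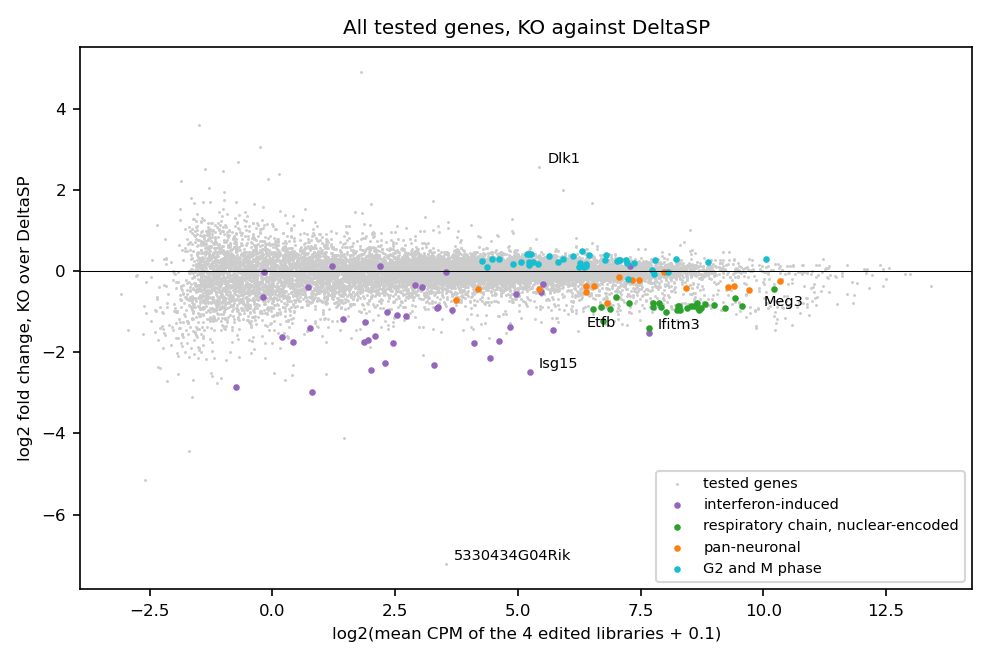
Log2 fold change of KO over DeltaSP for each of the 14900 tested genes against the mean level of the 4 edited libraries, log2(CPM + 0.1); coloured points are members of 4 lists. 5330434G04Rik lies alone at -7.23, interferon-induced genes reach -2.97, and genes of the respiratory chain lie between -1.39 and -0.45.

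Imprinted genes, which are read from 1 parental copy, held the gene with the highest log2 fold change among those the rule selects. Dlk1, a paternally expressed Notch-like membrane protein, had 14.7 and 10.2 CPM in DeltaSP, 79.2 and 69.0 in KO and 80.4 and 154 in WT. Dlk1 was low in DeltaSP, which did not overlap with KO. In KO 1 it was nearly level with WT 1, and its WT libraries lay far apart. Its log2 fold change was 2.57 ± 0.32 with an adjusted p of 0.353 in the edgeR fit of 6 libraries, 0.033 with the edited libraries alone and 1.6e-12 by DESeq2. Neuron-poor cells had 0.180 and 0.101 UMIs of Dlk1 per 10000 in DeltaSP and 0.825 and 0.894 in KO, and neuron-rich cells 0.143 and 0.019 against 0.572 and 0.600, so both cell groups had the difference.

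Meg3, the maternally expressed long non-coding RNA of the same imprinted domain, had the opposite order. It had 1395 and 1006 CPM in DeltaSP, 657 and 587 in KO and 850 and 853 in WT (-0.95 ± 0.21, edgeR adjusted p = 0.844, DESeq2 0.0039). DeltaSP was highest and KO lowest, with WT between them. Mirg, a microRNA host of that domain, had 25.5 and 18.5 CPM in DeltaSP and 12.2 and 12.6 in KO (-0.83 ± 0.23). In all, 28 imprinted genes were tested, 13 above 0 and 15 below, with a median of -0.11. Mest, another imprinted gene, had 978 and 929 CPM in DeltaSP and 1089 and 1008 in KO.

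Cdkn1c, Grb10 and Cd2 were nearly level between KO and DeltaSP while both lay away from WT. Cdkn1c, which is imprinted and restrains cell cycle entry, had 34.9 and 29.8 CPM in DeltaSP, 25.7 and 34.4 in KO and 274 and 271 in WT, and the edited libraries overlapped (-0.11 ± 0.18). Grb10, an imprinted adaptor of growth signalling, had 10.9 and 7.53 against 9.80 and 6.33 CPM, with 46.8 and 65.4 in WT. Cd2, a lymphocyte surface gene, had 70.1 and 63.1 CPM in DeltaSP, 66.2 and 67.3 in KO and 0.283 and 0 in WT (0.00 ± 0.26). Lck, the other tested member of the lymphocyte and blood list, had 3.10 and 2.99 CPM in DeltaSP, 2.40 and 3.66 in KO and 2.72 and 2.65 in WT. Ptprc reached 0.0568 CPM and Cd3e 0.0284 CPM at most in the edited libraries. H19, a maternally expressed RNA, had 211 and 195 CPM in DeltaSP and 194 and 129 in KO (-0.33 ± 0.48). Grb10, H19 and Mest were chosen after their values were seen.

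Neuronal genes were lower in KO without a passing call. All 16 pan-neuronal genes were below 0, with a median of -0.38. Of these, 7 did not overlap (against 21.1% of all genes), and 3 had an unadjusted p under 0.05 (against 4.28%). Mapt, the microtubule-binding protein tau, had 167 and 119 CPM in DeltaSP and 93.3 and 74.0 in KO (-0.77 ± 0.20), with WT at 191 and 197. Dcx, of migrating young neurons, had 115 and 82.2 against 77.1 and 62.1 CPM (-0.50 ± 0.20), and the splicing regulator Celf3 58.1 and 41.7 against 39.2 and 34.2 (-0.44 ± 0.19). Tubb3, neuronal tubulin, had 1540 and 1257 against 1292 and 1075 CPM, and its genotypes overlapped. In each of these 4 genes DeltaSP 1 was the highest edited library.

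The cytoskeleton and the synapse gave similar medians, and these lists share members such as Mapt with the pan-neuronal one. Of 18 genes of the neuronal cytoskeleton 17 were below 0 (median -0.34, 10 without overlap). Of 20 genes of acetylcholine handling and vesicle release 18 were (median -0.41, 12 without overlap). Over all genes, 21.1% were lower in KO without overlap. Tuba1a had 2173 and 1271 CPM in DeltaSP and 673 and 753 in KO (-1.27 ± 0.31, DESeq2 0.0081). It was the one member of these 2 lists called by DESeq2, which called 0.342% of all genes. Tubb2b had 1447 and 1109 against 744 and 863 CPM (-0.67 ± 0.26). Syt1, a calcium sensor of release, had 16.5 and 11.5 against 9.49 and 6.93 (-0.77 ± 0.24), and the vesicle GTPase Rab3a 96.8 and 74.7 against 56.5 and 58.5 (-0.58 ± 0.25).

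Within neuron-rich cells Tuba1a, which is not among the genes that define them, had 40.3 and 27.6 UMIs per 10000 in DeltaSP and 14.6 and 18.9 in KO. Its libraries did not overlap there either. In neuron-poor cells Tuba1a had 7.55 and 4.23 in DeltaSP and 2.33 and 3.67 in KO. Values were thus lower in KO in both cell groups, and the part of RNA carried over between cells was not tested. In pairs of libraries, the median difference of the pan-neuronal genes was -0.52 for KO 1 and -0.70 for KO 2 against DeltaSP 1, and -0.01 and -0.21 against DeltaSP 2. DeltaSP 1 and DeltaSP 2 themselves differed by 0.43, so the lower pan-neuronal median in KO rested mostly on DeltaSP 1.

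Among factors that define motor neurons, Mnx1, Isl1 and Lhx3 stayed close. Of 15 motor neuron genes, 10 were below 0, the median was -0.12, and 0 passed in edgeR or DESeq2. Without overlap, 6 of the 15 were lower in KO and 0 higher, against 21.1% and 20.8% of all genes. Mnx1 had 119 and 88.6 CPM in DeltaSP and 115 and 95.9 in KO, Isl1 had 259 and 229 against 241 and 210, and Lhx3 had 81.3 and 64.1 against 68.8 and 70.1. The libraries of the genotypes overlapped in all 3, with log2 fold changes of 0.02 ± 0.20, -0.12 ± 0.16 and -0.07 ± 0.17. Chat, the acetylcholine-making enzyme, had 33.3 and 24.5 CPM in DeltaSP and 23.2 and 22.7 in KO (-0.33 ± 0.17). Ebf1 and Lmo4, both transcriptional regulators, were the 2 of the list with an unadjusted p under 0.05 (against 4.28% of all genes). Ebf1 had 106 and 130 against 92.6 and 75.1 CPM, and Lmo4 54.2 and 52.1 against 35 and 36.4.

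The share of cells with 10 or more pan-neuronal UMIs of 3000 was 36.3% and 26.0% in DeltaSP, 27.0% and 24.2% in KO and 45.7% and 41.7% in WT. KO 1 was between the DeltaSP libraries, so the genotypes overlapped. KO minus DeltaSP was -5.55 percentage points, and an exact permutation test on the 4 libraries (two-sided) gave p = 0.667, where 2 against 2 cannot go below 0.33. Without thinning the shares were 62.0% and 39.5% in DeltaSP and 46.5% and 43.0% in KO. Leaving out DeltaSP 1 gave -0.39 points and leaving out DeltaSP 2 gave -10.7.

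**Figure D3:**
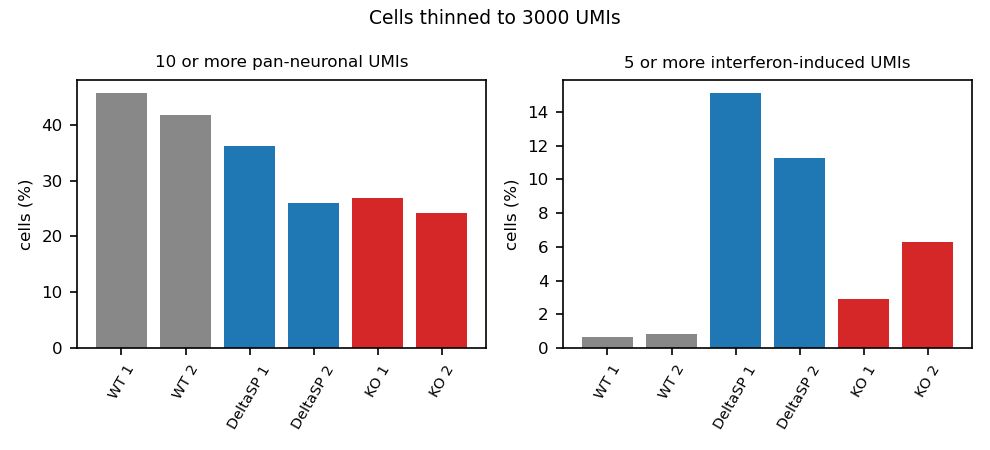
Percent of cells in each library with 10 or more pan-neuronal UMIs (left) and with 5 or more UMIs of 37 interferon-induced genes (right), after thinning each cell to 3000 UMIs; bars are single libraries. On the left KO 1, at 27.0%, stands between DeltaSP 2 and DeltaSP 1, and on the right both DeltaSP libraries, at 15.1% and 11.3%, are above KO.

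Cell cycle genes were mostly higher in KO, by small amounts. Of 40 genes of G2 and M phase 37 were above 0, with a median of 0.25, 20 did not overlap, against 20.8% of all genes, and 7 had an unadjusted p under 0.05, against 1.18%. Mki67, a marker of dividing cells, had 61.5 and 70.6 CPM in DeltaSP, 81.4 and 104 in KO and 39.5 and 47.0 in WT (0.49 ± 0.17). Ect2, needed for cytokinesis, had 30.4 and 33.2 against 40.4 and 44.9 CPM, the mitotic kinesin Kif20b 27.2 and 34.4 against 40.8 and 42.3, and the spindle pole protein Aspm 24.8 and 26.5 against 35.2 and 38.9. None of the list passed in edgeR or DESeq2.

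Of 36 S phase genes 29 were above 0, with a median of 0.16. Pcna, the sliding clamp of DNA replication, had 78.5 and 61.3 CPM in DeltaSP and 107 and 118 in KO (0.69 ± 0.19), with WT lower at 42.1 and 56.8. Pole2, a subunit of DNA polymerase epsilon, had 14.2 and 15.3 against 20.8 and 23.7 CPM (0.59 ± 0.17). In neuron-poor cells Mki67 had 0.898 and 0.873 UMIs per 10000 in DeltaSP and 1.16 and 1.42 in KO, and Pcna 1.13 and 0.758 against 1.55 and 1.57. Both were thus higher in KO also among neuron-poor cells. In pairs of libraries the median of the G2 and M list was 0.29 and 0.02 for KO 1 and 0.47 and 0.18 for KO 2, each against DeltaSP 1 and then DeltaSP 2. For S phase it was 0.24 and -0.059 for KO 1 and 0.35 and 0.10 for KO 2, so 1 of the 4 pairs had the other sign.

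Progenitor genes differed less. Olig2 had 250 and 263 CPM in DeltaSP and 291 and 302 in KO (0.21 ± 0.14), and Sox2, of neural progenitors, 156 and 178 against 161 and 222 (0.20 ± 0.23). Neurog2, which drives neuronal commitment, had 169 and 195 against 183 and 176 CPM and overlapped. Dll1, the Notch ligand of committing precursors, had 45.8 and 46.4 against 59.2 and 59.1 (0.36 ± 0.14), and Notch1, a receptor, 96.8 and 86.8 against 106 and 125 (0.33 ± 0.16). Of 15 Notch genes 9 were above 0 (median 0.14), and of 12 hedgehog genes 10 were (median 0.20), among them the signal transducer Smo with 67.5 and 70.3 against 80.9 and 86.0. None of these genes passed in edgeR or DESeq2, and Dll1 alone of the Notch and hedgehog lists had an unadjusted p under 0.05.

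Other genes that the rule names as higher in KO were spread over functions. Fgfr3, a growth factor receptor, had 48.0 and 41.1 CPM in DeltaSP and 55.1 and 75.9 in KO, Prtg, a receptor of the early neural tube, 61.9 and 96.3 against 125 and 108, and the tetraspanin Cd9 59.0 and 78.8 against 115 and 88.0. Slc16a1, a lactate transporter, had 29.5 and 32.2 against 41.4 and 47.4, and Plxna2, a semaphorin receptor, 29.9 and 31.2 against 40.2 and 40.6. The immediate early gene Fosb had 4.91 and 9.21 against 16.4 and 16.7 (1.23 ± 0.38). Msmo1, of cholesterol synthesis, had 110 and 107 against 127 and 160, and Cdkn2c, a kinase inhibitor, 5.79 and 6.94 against 8.90 and 11.9. In all 8 of these the libraries did not overlap, as in 42% of all tested genes, and the edgeR adjusted p was 0.844 or more. The rule that chose Fgfr3, Prtg, Cd9 and Slc16a1 required no overlap.

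**Figure D4:**
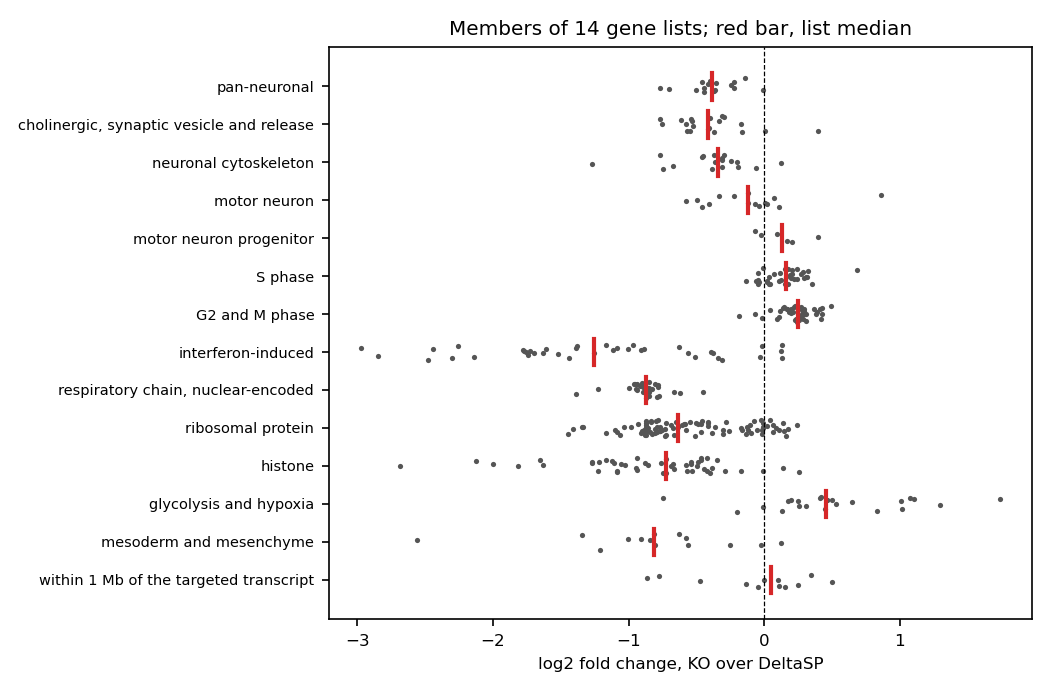
Log2 fold change of KO over DeltaSP for the tested members of 14 gene lists; each point is a gene, a red bar is the median of its list and the dashed line is the median of all tested genes. Interferon-induced, respiratory chain, mesenchymal, histone and ribosomal genes lie furthest to the left, and glycolysis and hypoxia furthest to the right at 0.45.

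Single genes outside these lists were also much lower in KO. Etfb, a mitochondrial electron carrier subunit, had 111 and 110 CPM in DeltaSP, 39.1 and 40.1 in KO and 110 and 59.4 in WT. Libraries agreed closely within each edited genotype, and neither KO library reached any other. Its log2 fold change was -1.48 ± 0.26, with an adjusted p of 0.844 in the edgeR fit of 6 libraries, 0.019 with the edited libraries alone and 0.00038 by DESeq2. Neuron-poor cells had 1.46 and 1.24 UMIs of Etfb per 10000 in DeltaSP and 0.505 and 0.481 in KO, and neuron-rich cells 0.872 and 0.781 against 0.316 and 0.248.

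Tshz2, a zinc finger factor of the Teashirt family, formed a descending order from WT to KO. It had 133 and 106 CPM in WT, 47.3 and 45.1 in DeltaSP and 23.6 and 17.9 in KO (-1.16 ± 0.18, edgeR adjusted p = 0.844, DESeq2 0.00032). Gm2694 had the same order, at 127 and 74.7, 24.3 and 18.5, and 9.15 and 6.59 CPM (-1.44 ± 0.29). The Hox antisense transcript Hoxb5os had 168 and 105 in WT, 46.6 and 18.0 in DeltaSP and 15.5 and 5.31 in KO (-1.64 ± 0.58), with wide gaps between clones. Epha5, an axon guidance receptor, had 259 and 113, 65.9 and 46.8, and 31.3 and 18.5 CPM (-1.18 ± 0.41).

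Short transcripts of the mitochondrion and ribosome were lower in KO as whole groups. All 29 nuclear genes of the respiratory chain were below 0, with a median of -0.87. All 29 were without overlap (against 21.1% of all genes), and 28 had an unadjusted p under 0.05 (against 4.28%). Of 93 ribosomal protein genes 82 were below 0, with a median of -0.63 and 35 with p under 0.05, and of 49 histone genes 47 were below 0 with a median of -0.73. None passed in edgeR, and DESeq2 called 2, 3 and 1 of these lists, against 0.342% of all genes. Atp5k, a subunit of ATP synthase, had 201 and 390 CPM in DeltaSP and 122 and 104 in KO (-1.39 ± 0.32), Cox6b1 330 and 507 against 243 and 189, and Ndufs6 124 and 187 against 86.1 and 76.4.

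These groups also differed between clones of 1 genotype. Rplp1, a ribosomal stalk protein, had 1167 and 2350 CPM in DeltaSP and 740 and 551 in KO, and Rps29 802 and 1880 against 538 and 471. DeltaSP 2 was above DeltaSP 1 in both. By medians DeltaSP 1 lay below DeltaSP 2 by 0.67 (log2) for the respiratory chain and 0.55 for ribosomal proteins, and KO 1 lay above KO 2 by 0.34 and 0.21. Against DeltaSP 1, the respiratory medians were -0.33 for KO 1 and -0.68 for KO 2, and against DeltaSP 2 they were -1.01 and -1.33.

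Transcript length moved with this result. With tested genes cut into 4 groups of like size by transcript length, 346 of 3693 in the shortest group were lower in KO at an unadjusted p under 0.05, against 107, 89 and 90 in the next 3 groups, while the medians of the 4 groups ran from -0.04 to 0.01. Mif, a short cytokine transcript, had 656 and 1159 CPM in DeltaSP and 541 and 540 in KO. The mitochondrially encoded mt-Nd3 had 146 and 218 against 69.2 and 91.1 (-1.18 ± 0.26), the lowest of the 13 mitochondrially encoded genes. Of these 13, 9 were below 0 and 4 above, with a median of -0.07 and a highest value of 1.67. The part of transcript length or library preparation in these differences was not tested. Rps29 and mt-Nd3 were chosen after their values were seen.

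Glycolysis and hypoxia genes were higher in 1 KO clone. Of 24 genes 21 were above 0, with a median of 0.45. KO was higher without overlap in 2 (8.33%, against 20.8% of all genes). None was higher in KO at an unadjusted p under 0.05, and Mif, a member of this list too, was lower. Ldha, lactate dehydrogenase, had 138 and 349 CPM in DeltaSP and 174 and 803 in KO, and Pdk1, which restrains entry of pyruvate into mitochondria, 2.35 and 6.39 against 4.54 and 24.8. KO 2 was highest and KO 1 lay within the DeltaSP range in both genes. Without KO 2, Ldha went to -0.48 from 1.01 and Pdk1 to 0.05 from 1.74. By medians KO 1 lay 0.98 below KO 2. Slc2a1, the glucose transporter, had 254 and 355 against 363 and 518 CPM and did not overlap (0.53 ± 0.23). Ldha and Pdk1 were chosen after their values were seen.

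Several Y-linked genes separated a clone rather than a genotype. Ddx3y had 0 UMIs in DeltaSP 1, 969 in DeltaSP 2, 490 in KO 1 and 738 in KO 2, and Uty had 0, 487, 282 and 440. Eif2s3y had 0, 33.2, 26.5 and 36.0 CPM in these libraries and Kdm5d 0.08, 4.73, 4.54 and 6.22. DeltaSP 1 was at 0 in 3 of these genes and held 3 UMIs of Kdm5d. Gm47283, also annotated on Y and chosen after its values were seen, had 15721, 19345, 12354 and 14896 UMIs and was not missing from DeltaSP 1. With DeltaSP 2 left out, Ddx3y, Eif2s3y and Uty passed in edgeR, and with DeltaSP 1 left out the log2 fold change of Ddx3y was -0.22.

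**Figure D5:**
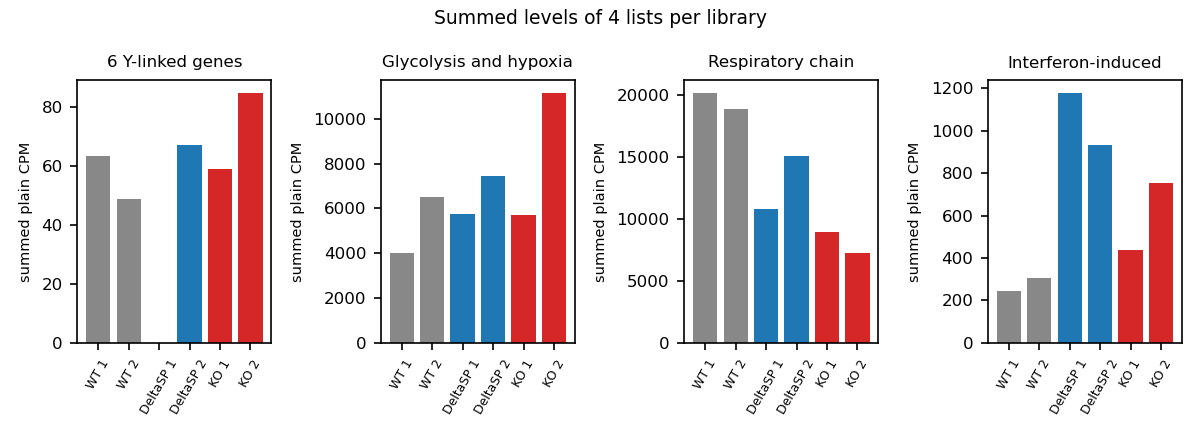
Summed plain CPM (without TMM scaling) of 4 gene lists in each library; grey bars are WT, blue DeltaSP and red KO. The sum of 6 Y-linked genes is 0.08 in DeltaSP 1, the glycolysis sum is highest in KO 2, the respiratory sum is higher in DeltaSP 2 than in DeltaSP 1, and the interferon sum is highest in both DeltaSP libraries.

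Markers of mesenchyme and surface epithelium were low in all libraries. Lists of neural crest and glia were higher, with summed plain CPM of 313 to 415 and 143 to 189 in the edited libraries. The neural crest list includes Isl1 and the glial list Olig1, genes also of motor neurons and their progenitors, which held most of these sums. Olig1 had 96.6 and 95.1 CPM in DeltaSP and 103 and 112 in KO. The sums are therefore not read as neural crest or glial cells. Of 14 tested genes of mesoderm and mesenchyme 13 were lower in KO, 10 without overlap (against 21.1% of all genes), with a median of -0.81. Col1a1 had 5.79 and 3.29 CPM in DeltaSP and 1.96 and 2.56 in KO, Pdgfrb 2.61 and 3.53 against 1.90 and 1.62, and the matrix protein Lum 2.56 and 1.61 against 0.685 and 0.0284. Rspo3, a secreted enhancer of Wnt signalling, had 5.39 and 3.47 against 2.18 and 0.682 (-1.63 ± 0.51). The summed plain CPM of the mesenchymal list was 80.1 and 67.7 in DeltaSP and 62.3 and 38.9 in KO. All 5 tested genes of surface epithelium were above 0, and the adhesion protein Epcam had 2.77 and 6.83 against 12.8 and 11.6 (1.34 ± 0.50). None passed in edgeR or DESeq2. At an unadjusted p under 0.05 were 3 mesenchymal genes, all lower (against 4.28% of all genes), and 1 epithelial gene, higher (against 1.18%). The part of these cells in the differences above was not tested.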

How the data were processed

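The deposited values are counts: whole UMIs per gene and cell barcode, which the authors made with Cell Ranger 4.0 on mm10 with Ensembl release 93, per the submitters' processing notes and the labels, and left unnormalized. The kit versions V3 and V3.1 both appear in the labels for the 10x assay. Doublets were not removed. A member of the interferon-induced list is not reported here by name. Members and gene lists were chosen with earlier results of these data known, and the lists are not independent evidence of a direction.

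UMIs were summed per library over cells with 1000 or more genes and no more than 10% mitochondrial UMIs. Sums were scaled by TMM and filtered with filterByExpr, and edgeR 4.0.16 under R 4.3.3 gave quasi-likelihood p-values, adjusted by Benjamini-Hochberg and called at 0.05. The 6 libraries were in 1 fit with genotype as its term, which left 14900 genes. Adjusted p-values are over all tested genes. Library totals were 30083162 to 47927845 UMIs in edited libraries, while the errors and p-values of the fit rest on the spread between libraries. Intervals and floors cover counting error only, a floor being 3 counts. Tested on simulated data over 14758 genes, the fit recovered 55% of 2-fold and 95% of 4-fold changes, with 12 false calls. The simulation planted 100 changes of each size, only in genes with higher counts. Adjustment is stricter where few genes change, so these shares do not carry over to the data. There Isg15 (-2.48) and Dlk1 (2.57) differed by more than 4-fold and did not pass in the 6-library fit.

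Of 31053 gene names, 30532 matched GENCODE M21, which gave transcript lengths and 21595 3' UTRs. Named genes are passing genes, up to 12 largest rises and falls (unadjusted p under 0.05, at least 20 CPM in the higher genotype, no overlap), up to 3 per list by smallest p, and fixed markers of the locus and of motor neurons. The text takes from these the ones that belong to a group it describes. Some lists were described above only briefly or not at all. They were p3 or floor plate, interneuron, retinoic acid, Hox, integrated stress response, p53, endothelial, neural crest, glial, germ cell, endoderm and pluripotent. These lists held 0 passing genes in edgeR or DESeq2. At an unadjusted p under 0.05 they held 3, where 1.18% of all genes were higher and 4.28% lower. These were the p53 target Trp53inp1, higher in KO, and Ngfr of neural crest and Apoa1 of endoderm, both lower. Of 18 p53 targets (median 0.09), 11 were higher in KO without overlap (61.1%) and 2 lower (11.1%). Over all genes these shares were 20.8% and 21.1%.

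Alternatives were size factors of DESeq2, omitting the low-count filter, the 4 edited libraries alone, a replicate block, leaving out each library, other cell filters, thinning, and the DESeq2 1.42.0 Wald test. The split into neuron-rich (10 or more pan-neuronal UMIs of 3000) and neuron-poor cells (under 5) was chosen after seeing the data. RNA carried over between cells was not removed, and its part in the values of either group was not tested.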

Additional observations from a re-analysis of the deposited data

How the results depend on the processing

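The count of passing genes was 1 in the 6-library fit. It stayed at 1 with DESeq2 size factors, a looser cell filter, the deepest 5% of cells left out, and either kind of thinning. It was 422 without the filter on low counts (40 higher, 382 lower, of 22804), 4 with the edited libraries alone, 51 by DESeq2 and 2 in neuron-rich cells, and the cause was not tested. With single libraries left out it ran from 1 to 4. It was 4 without WT 1 or WT 2 (5330434G04Rik, Etfb, Dlk1 and Ifitm3), 4 without DeltaSP 2, and 2 without KO 2, which added Lefty1. The share of neuron-rich cells ran from -10.7 to -0.39 points with single libraries left out.

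Same-numbered libraries deviated from their group means with correlations of 0.03 (KO 1 and DeltaSP 1), 0.14 (KO 1 and WT 1) and -0.02 (DeltaSP 1 and WT 1). The labels do not state that the numbers pair libraries, and with 2 libraries per genotype these correlations cannot decide it. A replicate block gave 1 passing gene over 6 libraries and 2 over the edited libraries, with Dlk1 added.

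Of the genes named, 13 changed sign under some alternative, none of them past the threshold there. With single libraries left out, log2 fold changes ran from -0.084 to 12.87 for Eif2s3y, -0.22 to 12.08 for Ddx3y, -0.22 to 0.12 for Lhx3, -0.33 to 0.088 for Cdkn1c and -0.54 to 0.099 for Grb10. They ran from -0.17 to 0.25 for Mnx1, -0.059 to 0.081 for Cd2, -0.12 to 0.097 for Neurog2, -0.15 to 0.95 for Pgk1, -0.051 to 0.41 for Sox2, -0.13 to 0.0083 for Gm47283 and -0.48 to 1.84 for Ldha. Without the filter on low counts Cd2 was at -0.0020. Under the looser cell filter Cd2 was at -0.021 and Mnx1 at -0.013, without the deepest cells at -0.044 and -0.019, and Mnx1 was at -0.054 in thinned cells. In neuron-rich cells Isl1 was at 0.075, Lhx3 at 0.087, Cdkn1c at 0.13 and Neurog2 at 0.34, and in neuron-poor cells Cd2 was at -0.12 and Mnx1 at -0.16. Depth limits the fold of 5330434G04Rik, which rests on 10 UMIs in KO.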

Other observations

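Some transcripts outside the lists were also lower or higher in KO. They were chosen after their values were seen. Sst, the neuropeptide somatostatin, had 231 and 194 CPM in DeltaSP, 112 and 57 in KO and 308 and 333 in WT, a log2 fold change of -1.33 ± 0.30 (edgeR adjusted p = 0.844, DESeq2 0.0079). Cartpt, the precursor of the CART peptide, had 84 and 77.4 CPM in DeltaSP, 48.6 and 35.1 in KO and 97.1 and 87.2 in WT (-0.95 ± 0.18). Both neuropeptide genes were lower in each KO library than in every other library. Dynlt1f, a dynein light chain gene with near-identical copies, had 70.1 and 87.3 CPM in DeltaSP and 39.6 and 27.0 in KO (-1.24 ± 0.22), and reads of its copies may be split in the counting.

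Lefty1, a secreted Nodal antagonist, had 12.9 CPM in KO 1, 0.369 in KO 2, and 0.16 and 0.262 in the DeltaSP libraries. It was high in KO 1 alone, and its log2 fold change was 4.92 ± 1.41 with both KO libraries and 0.78 without KO 1.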
